A study of Rattus norvegicus with 12 samples.

Results

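Identity genes of endothelial cells and macrophages were followed through cultured neonatal rat ventricular myocytes (NRVMs), as a view of the RNA of cells other than myocytes. They were the rows of the gene tables with the symbols Pecam1, Cdh5, Kdr, Tek and Tie1 (5 endothelial genes) and Cd68, Cd163, Csf1r, C1qa and Ptprc (5 macrophage or leukocyte genes), 10 of 18469 genes in all. The macrophage genes Cd68, Csf1r and C1qa fell together, in siNeg cells given phenylephrine (PE) and in siSlc25a26 cells without PE, by 1.66 to 2.08 times. The leukocyte gene Ptprc, at 7 to 26 counts per library, was not called in either comparison (log2 fold change -0.28 and 0.012). The endothelial receptors did not move as a group: Kdr fell 2.12 times with PE in siNeg cells, while Tek was no lower there and was 1.65 times higher in the PE-treated libraries labelled siSlc25a26.PE than in siSlc25a26. Those labelled libraries showed no lower level of the siRNA's target than siNeg.PE. Cd163 gave 1 read count in 1 library and none in 11.

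Endothelial cells line the vessels of the heart and are recognised by junction proteins and by receptor tyrosine kinases for vascular growth factors. Cardiac macrophages are resident phagocytes that depend on signals through the CSF1 receptor and that make the complement component C1q. Cultures of NRVMs are enriched for myocytes by preparation, and non-myocytes carried along can remain in the dish. In bulk RNA, fewer cells of a type and less RNA per cell cannot be told apart.

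RNA was sequenced in 12 libraries, 3 described as independent biological replicates in each of 4 groups, all of NRVMs from Sprague-Dawley rats. Cells were transfected with the negative control siRNA (siNeg) or with siSlc25a26, and were left untreated (siNeg, siSlc25a26) or were given PE, which stimulates α-adrenergic receptors and drives hypertrophic growth of cardiomyocytes (siNeg.PE, siSlc25a26.PE). Per the labels, PE was added 12 h after transfection and lasted 36 h. The study's methods describe left ventricles of newborn rats, digested with collagenase and separated from fibroblasts on a Percoll gradient. How far that gradient removes endothelial cells or macrophages was not measured here. Whether hearts were pooled is not given in the sources used here. All 12 libraries share transfection and a medium supplemented with insulin, transferrin and selenium.

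Total counts were 24770972 to 28709049 per library. At this depth 3 counts, the smallest level taken as detected, were 0.0992 to 0.120 CPM (read counts scaled to a fixed library total). CPM here are adjusted by TMM normalization, and such floors cover counting error only. Slc25a26, the targeted gene, had 31.4 ± 2.01 CPM in siNeg and 15.1 ± 0.612 CPM in siSlc25a26 (SD, n = 3 each), lower by edgeR's test (log2 fold change -1.08, adjusted p = 1.08e-05). Under PE its level was 102 ± 14.1 CPM (siNeg.PE) and 102 ± 3.68 CPM (libraries labelled siSlc25a26.PE), so the latter showed no lower level of the target (log2 fold change -0.0062, adjusted p = 0.969). In what follows siSlc25a26.PE names these libraries by their label alone. All 14 cardiomyocyte markers examined were tested, and their summed level was 46320 to 95620 CPM, against 22.11 to 29.44 CPM for the 5 endothelial genes and 11.04 to 27.41 CPM for the 5 macrophage genes. The 10 fibroblast markers summed to 8780 to 23670 CPM. These sums hold different numbers of genes, are not divided by gene length and give no share of cells.

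Levels of different genes were compared in FPKM, which divides by gene length. By mean FPKM over the 12 libraries the order was Cd68 (8.01), Tek (3.29), C1qa (1.68), Kdr (1.62), Csf1r (1.30), Pecam1 (0.276), Tie1 (0.232), Ptprc (0.130), Cdh5 (0.125) and Cd163 (0.000833). Cd68 lay above Tek, Tek above C1qa, Csf1r above Pecam1 and Cdh5 above Cd163 in 12 of 12 libraries. Neighbours elsewhere in that order changed places: C1qa lay above Kdr in 8 of 12 libraries and in 0 of 3 siSlc25a26 libraries, Kdr above Csf1r in 10, Pecam1 above Tie1 in 8, Tie1 above Ptprc in 8 and Ptprc above Cdh5 in 6. Pecam1, Cdh5, Tie1 and Ptprc rest on 3 to 40 counts per library.

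**Figure D1:**
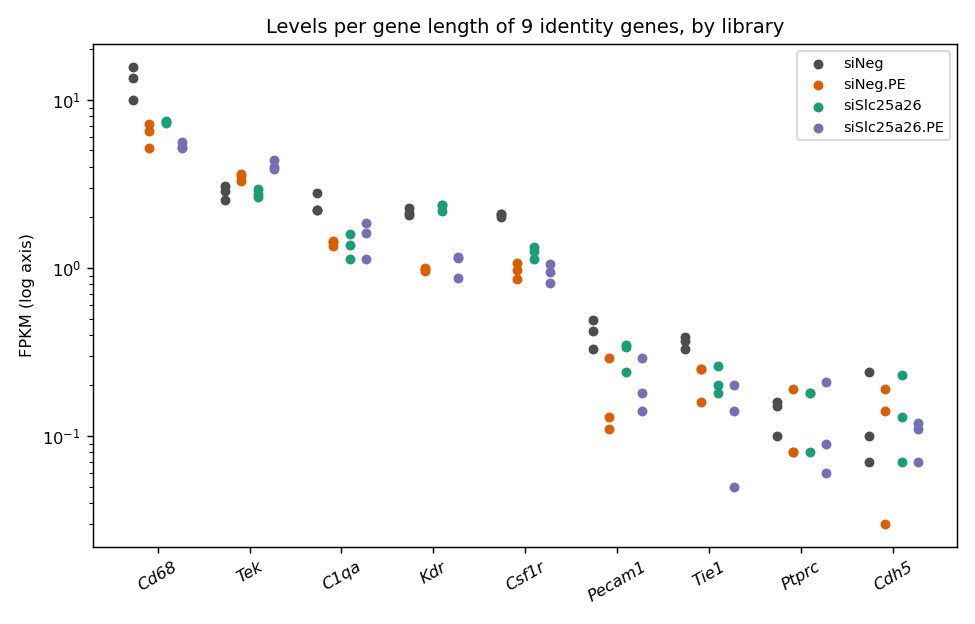
FPKM (log axis) of 9 of the 10 genes in each of 12 libraries, coloured by group, in the order of their mean; Cd163 is left out because it is at 0 in 11 libraries. Cd68 is highest throughout at 5.15 to 15.72 FPKM, and the 4 genes at the right stay under 0.5 FPKM.

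Promoter windows are shown for 4 of the genes called lower in at least 1 comparison, the endothelial Kdr and Tie1 and the macrophage Cd68 and C1qa. Csf1r was also called lower and has a window, which is described by its motifs and not printed. The RefSeq table of assembly GRCr8 held a window of 250 bases before to 50 bases after the start for 7 of the genes. Motifs were searched on both strands: AGGAAG, the core read by ETS factors including PU.1; AGATAA, read by GATA factors; and GAAANNGAA, a core of interferon response elements. Matches of different motifs may overlap. Capitals mark a match on either strand, so CTTCCT is AGGAAG on the other strand. Kdr is at chr14:32571813-32572112 (plus strand), Tie1 at chr5:137304932-137305231 (minus strand), Cd68 at chr10:54882392-54882691 (minus strand) and C1qa at chr5:154419884-154420183 (minus strand); each sequence runs 5′ to 3′ on the gene's strand.
Kdr: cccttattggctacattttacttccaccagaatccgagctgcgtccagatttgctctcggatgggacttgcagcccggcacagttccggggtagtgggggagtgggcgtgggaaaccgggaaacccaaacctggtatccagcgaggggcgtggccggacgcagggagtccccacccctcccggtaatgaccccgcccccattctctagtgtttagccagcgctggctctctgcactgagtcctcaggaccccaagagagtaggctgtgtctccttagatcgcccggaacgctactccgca
Tie1: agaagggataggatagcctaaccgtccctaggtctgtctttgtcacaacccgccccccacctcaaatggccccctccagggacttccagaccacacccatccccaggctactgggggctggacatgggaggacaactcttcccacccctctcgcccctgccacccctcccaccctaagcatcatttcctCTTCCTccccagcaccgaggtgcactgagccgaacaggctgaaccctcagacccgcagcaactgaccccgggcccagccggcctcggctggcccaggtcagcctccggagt
Cd68: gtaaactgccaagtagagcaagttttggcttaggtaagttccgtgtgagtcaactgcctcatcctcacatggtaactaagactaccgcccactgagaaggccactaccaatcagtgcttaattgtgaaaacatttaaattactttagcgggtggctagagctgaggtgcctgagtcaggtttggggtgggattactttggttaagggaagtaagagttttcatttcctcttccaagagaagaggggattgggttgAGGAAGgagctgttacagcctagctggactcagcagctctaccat
C1qa: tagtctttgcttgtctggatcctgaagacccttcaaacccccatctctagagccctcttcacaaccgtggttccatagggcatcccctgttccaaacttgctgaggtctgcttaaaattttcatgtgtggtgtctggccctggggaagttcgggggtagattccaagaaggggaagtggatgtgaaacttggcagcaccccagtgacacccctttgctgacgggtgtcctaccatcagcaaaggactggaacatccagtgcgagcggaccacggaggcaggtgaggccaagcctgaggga
AGGAAG was found in 5 of the 7 windows and in 34.5% of 33469 promoter windows of the same length. AGATAA was found in 1 of 7 (Cd163), against 11.6%. GAAANNGAA was found in 1 of 7 (Csf1r, whose window also held AGGAAG), against 9.71%. The windows of Kdr and C1qa held none of these motifs.

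**Figure D2:**
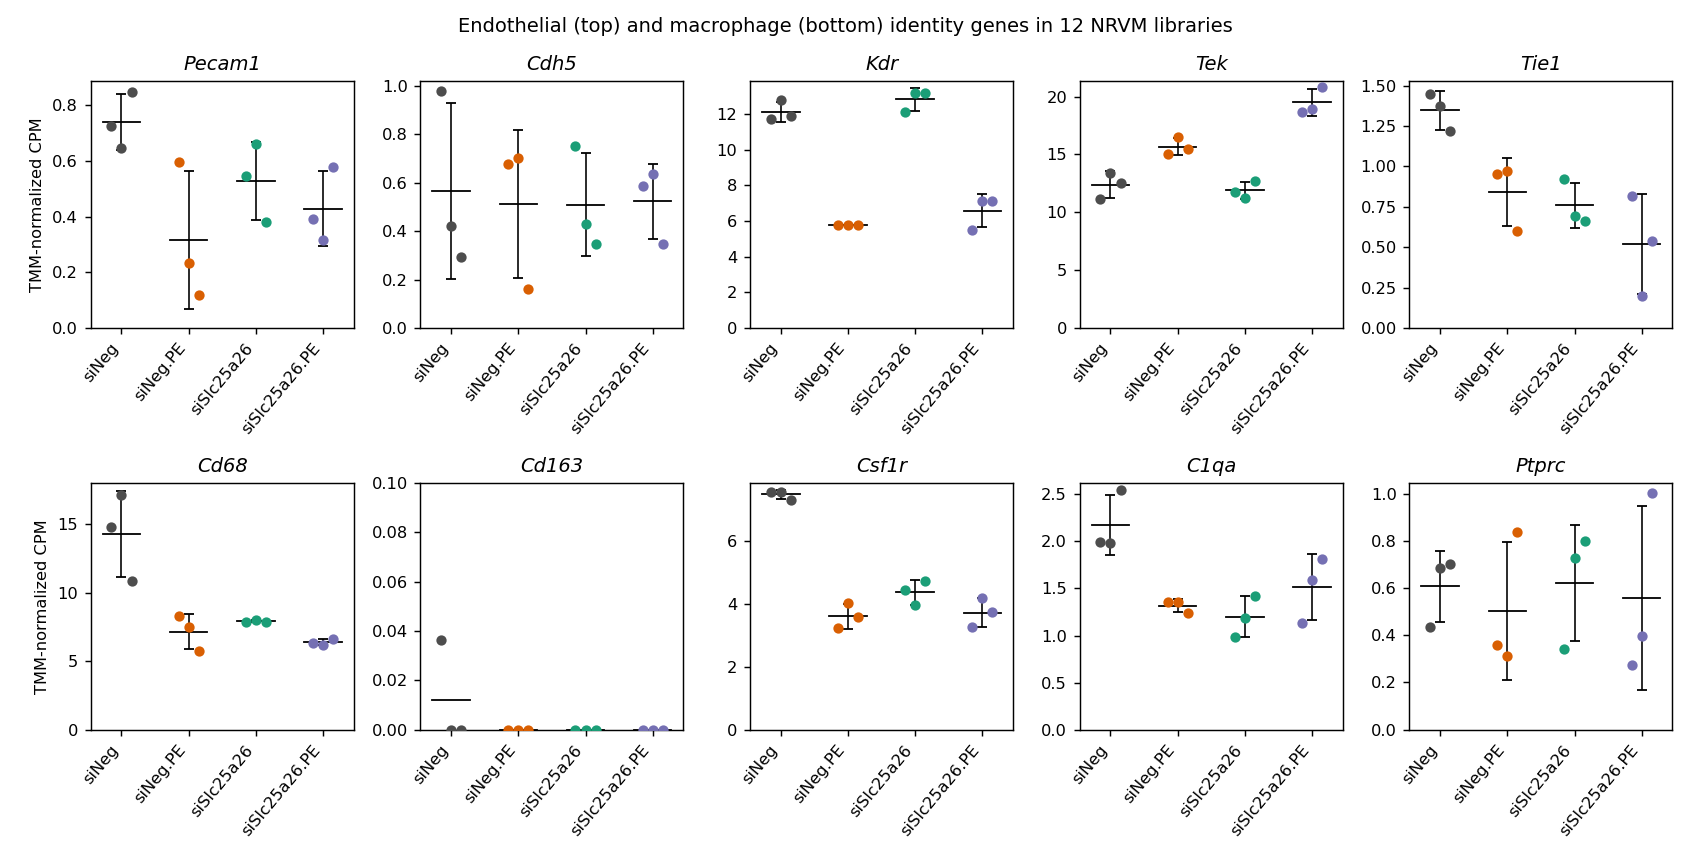
TMM-normalized CPM of each gene in 12 libraries, with endothelial genes above and macrophage genes below; points are libraries, horizontal lines group means and bars ± 1 SD (n = 3; no bar for Cd163). In siNeg the Cd68, Csf1r and C1qa libraries all lie above those of the other groups, and Kdr splits into high libraries without PE and low libraries with PE.

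The first question was what PE did to these genes in control cells (siNeg against siNeg.PE). Each comparison used edgeR's quasi-likelihood test, and genes past 1.5-fold with a Benjamini-Hochberg adjusted p under 0.05 over all genes tested were called. Of the 10 genes 9 passed the filter on low counts, 5 were called lower and 0 higher. Among all 13719 genes tested, 8.24% were called lower and 12.4% higher. At an unadjusted p under 0.05, 1 of the 9 was higher and 6 were lower; DESeq2 called 0 higher and 4 lower, and limma-voom 0 and 6. An exact permutation test of 3 against 3 libraries cannot go below p = 0.1, which is the value of each gene here whose groups do not overlap.

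Kdr encodes VEGF receptor 2, the main signalling receptor for VEGF-A in endothelium. Its counts in siNeg were 323, 335 and 323, and in siNeg.PE 145, 149 and 144. The groups were far apart and each was tight: 12.1 ± 0.566 CPM against 5.77 ± 0.0225 CPM. The log2 fold change was -1.08 (SE 0.0947, edgeR adjusted p = 8.77e-05), and the call held under all 16 alternative settings run.

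Tek encodes TIE2, the angiopoietin receptor. Its estimated counts were 306.93, 351.88 and 340.87 in siNeg and 378.95, 423.88 and 387.92 in siNeg.PE, so every PE library was above every control. The change, 0.33 on the log2 scale (SE 0.0981, edgeR adjusted p = 0.0233), passed the p threshold and stayed under the fold line, and was not called. The estimated counts of Tek, Cd68 and Csf1r are not whole numbers, so the authors' counting may have shared reads among genes, and these 3 levels are uncertain to that extent.

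Tie1 encodes the orphan partner of TIE2. Its counts were 40, 36 and 33 in siNeg and 24, 25 and 15 in siNeg.PE, with no overlap in CPM. The log2 fold change was -0.69 (SE 0.251, edgeR adjusted p = 0.0498). This call sits at the threshold: it was lost under 12 of 16 alternatives, DESeq2 (adjusted p = 0.150) and each of the 6 fits without 1 library among them, with adjusted p from 0.037 to 0.155 over the alternatives.

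Pecam1 (CD31) and Cdh5 (VE-cadherin) are adhesion proteins of endothelial junctions. Pecam1 had 20, 17 and 23 counts in siNeg and 15, 6 and 3 in siNeg.PE, a log2 fold change of -1.23 (SE 0.477, edgeR adjusted p = 0.0613) that was not called. Pecam1 was called lower with limma-voom (adjusted p = 0.0334), and without siNeg.PE replicate 1 its log2 value was -2.04 (adjusted p = 0.007); over 15 alternatives adjusted p ran from 0.007 to 0.185. Cdh5 had 27, 11 and 8 counts in siNeg and 17, 18 and 4 in siNeg.PE, groups that overlap (log2 -0.16, SE 0.59, edgeR adjusted p = 0.842). Its sign turned without siNeg replicate 1 or siNeg.PE replicate 3.

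Among the macrophage genes, Csf1r encodes the receptor for CSF1 and IL-34. Its estimated counts were 209.35, 198.7 and 198.37 in siNeg and 81.18, 103.71 and 89.77 in siNeg.PE. All PE libraries were far below the controls, with a log2 fold change of -1.06 (SE 0.124, edgeR adjusted p = 0.000344). Cd68, a lysosomal glycoprotein of phagocytes, had 407.91, 450.17 and 295.32 in siNeg and 208.05, 192.69 and 143.57 in siNeg.PE. It fell by 1.01 on the log2 scale (SE 0.19, edgeR adjusted p = 0.00333) despite the spread within siNeg, 14.3 ± 3.17 CPM.

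C1qa encodes the A chain of C1q, made largely by tissue macrophages. Its counts were 55, 52 and 69 in siNeg and 34, 35 and 31 in siNeg.PE, without overlap (log2 fold change -0.73, SE 0.189, edgeR adjusted p = 0.0131). Ptprc, which encodes the leukocyte antigen CD45, had 12, 18 and 19 counts in siNeg and 9, 8 and 21 in siNeg.PE. Those groups overlap, and the value was -0.28 (SE 0.436, edgeR adjusted p = 0.615). Cd163, a haemoglobin scavenger receptor of resident macrophages, had 1 count in siNeg replicate 1 and 0 in the other libraries, which allows up to 0.0992 to 0.120 CPM per library, and it was not tested.

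**Figure D3:**
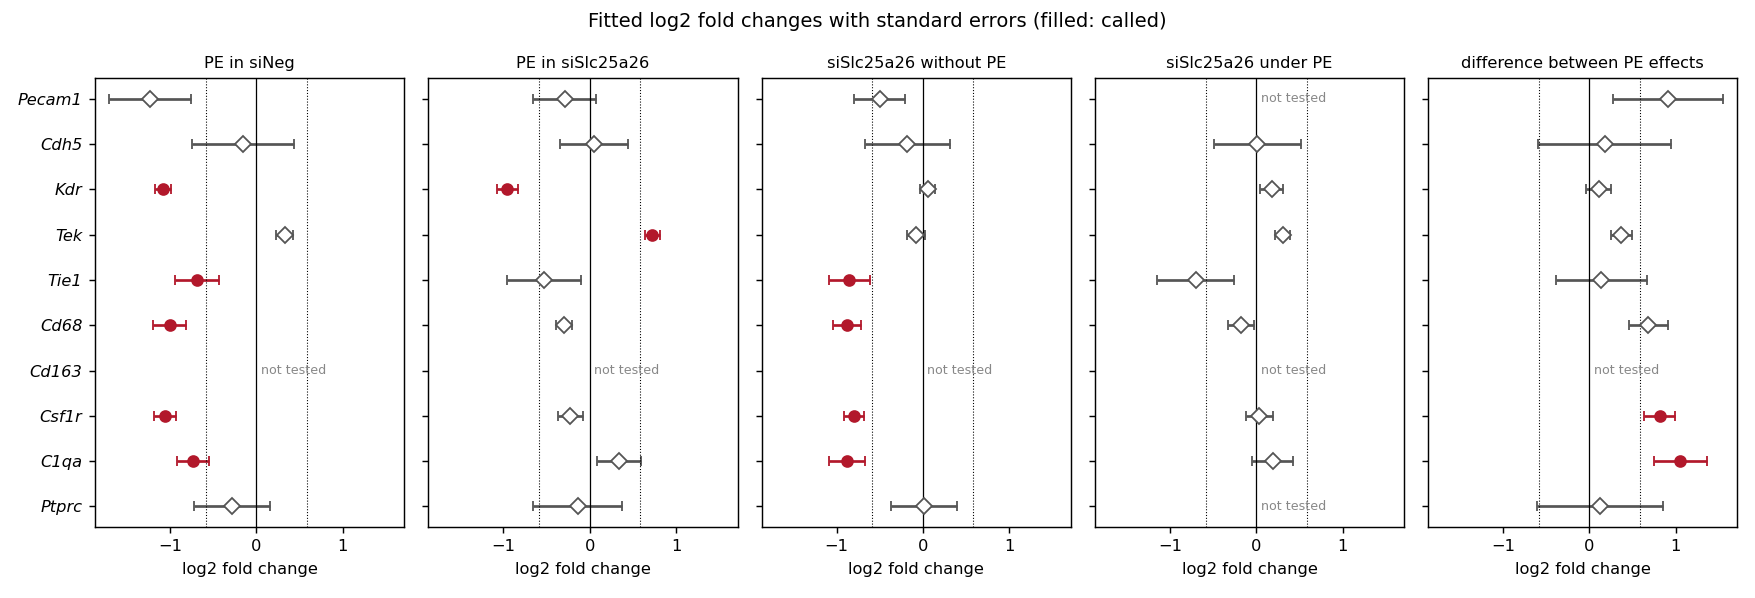
Fitted log2 fold changes (points) with standard errors (bars) of the 10 genes in 5 comparisons; filled red circles are called, open diamonds are not, and dotted lines mark a fold change of 1.5. Cd68, Csf1r and C1qa lie below the lower line with PE in siNeg and with siSlc25a26 without PE, and near 0 under PE.

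The same question was asked in siSlc25a26 cells, where the treated libraries are those labelled siSlc25a26.PE. Of 9 genes tested, 1 was called higher and 1 lower, against 10.1% higher and 10.4% lower among all 13776 genes. Kdr had 355, 398 and 380 counts without PE and 141, 179 and 184 with it. It fell by 0.95 on the log2 scale (SE 0.12, edgeR adjusted p = 0.000193), again with a clear gap between the groups. Tek went the other way, from 344.72, 340.3 and 365.91 to 479.74, 475.89 and 539.84 (log2 fold change 0.72, SE 0.0865, edgeR adjusted p = 0.000146). On the FPKM scales Tek stayed under the fold line, at 0.42 with a pseudocount of 1 and 0.53 with 0.1.

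The macrophage genes were not called there. Cd68 had 230.16, 241.6 and 227.09 without PE and 163.18, 155.48 and 171.9 with it, without overlap, and its log2 value of -0.30 (SE 0.0984, edgeR adjusted p = 0.0304) was under the fold line. Csf1r had 130.45, 119.67 and 136.77 against 83.76, 105.42 and 96.77, which overlap once scaled to CPM (log2 -0.22, SE 0.147, edgeR adjusted p = 0.232). C1qa had 29, 36 and 41 against 29, 40 and 47 (log2 0.34, SE 0.253, edgeR adjusted p = 0.285). Pecam1 (16, 20 and 11 against 10, 8 and 15 counts), Cdh5 (22, 13 and 10 against 15, 16 and 9), Tie1 (27, 21 and 19 against 21, 5 and 14) and Ptprc (10, 22 and 23 against 7, 10 and 26) overlapped between the groups.

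The next question was what siSlc25a26 did without PE (siNeg against siSlc25a26). Of 9 genes tested, 4 were called lower and 0 higher; the shares over all 13829 genes were 7.2% and 8.92%. No gene of the 9 was higher at an unadjusted p under 0.05, and DESeq2 and limma-voom also called 0 higher. Cd68 fell by 0.88 on the log2 scale (SE 0.158, edgeR adjusted p = 0.00208), Csf1r by 0.80 (SE 0.116, edgeR adjusted p = 0.000657) and C1qa by 0.88 (SE 0.211, edgeR adjusted p = 0.00894). Their siSlc25a26 libraries all lay below their siNeg libraries. Cd68 stood at 7.91 ± 0.0774 CPM, Csf1r at 4.38 ± 0.400 CPM and C1qa at 1.20 ± 0.219 CPM in siSlc25a26. This comparison and that of PE in siNeg share the siNeg libraries.

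Tie1 was the endothelial gene called, at -0.85 (SE 0.236, edgeR adjusted p = 0.0172), and the call was lost under 8 of 16 alternatives, with adjusted p from 0.0114 to 0.0683. Among them were DESeq2 and the fits without siNeg replicate 1, siNeg replicate 2, siSlc25a26 replicate 2 or siSlc25a26 replicate 3. Kdr (log2 0.054, edgeR adjusted p = 0.646) and Tek (log2 -0.082, edgeR adjusted p = 0.543) overlapped between the groups, as did Pecam1, Cdh5 and Ptprc. A single targeting siRNA name is in the labels, so loss of the target and other responses to that siRNA cannot be told apart. All 10 interferon-stimulated genes examined rose in this comparison, from a summed 202.1 to 234.6 CPM in siNeg to 7959 to 8638 CPM in siSlc25a26, and their part in these results was not tested.

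Under PE (siNeg.PE against the libraries labelled siSlc25a26.PE) 7 genes were tested and edgeR called 0 in either direction, against 7.71% higher and 8.1% lower of 13671 genes. At an unadjusted p under 0.05, 1 of the 7 was higher and 0 were lower, and DESeq2 and limma-voom called 0. That gene was Tek, with 15.7 ± 0.720 CPM against 19.5 ± 1.19 CPM and no overlap (log2 0.31, SE 0.0861, edgeR adjusted p = 0.0202, under the fold line). Cd68, Csf1r, C1qa, Kdr, Tie1 and Cdh5 overlapped between these groups. Pecam1 and Ptprc did not pass the filter.

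Whether the effect of PE differed between the siRNAs was tested as an interaction over all 12 libraries. Of 9 genes tested, 2 were called higher and 0 lower, against 2.16% and 3.34% of 14097 genes. A positive value means a less negative or more positive change from siSlc25a26 to the libraries labelled siSlc25a26.PE than from siNeg to siNeg.PE. Slc25a26 itself was no lower in those labelled libraries than in siNeg.PE. Csf1r differed by 0.82 on the log2 scale (SE 0.179, edgeR adjusted p = 0.0123), and this call was lost under 1 of 21 alternatives. C1qa differed by 1.05 (SE 0.31, edgeR adjusted p = 0.0464), and the call was lost under 13 of 21 alternatives, with adjusted p from 0.0222 to 0.105. Those 13 include DESeq2, limma-voom and 10 of the 12 fits without 1 library. Cd68 gave 0.68 (SE 0.226, edgeR adjusted p = 0.0729) and was called under 4 of 21 alternatives, at 0.84 without siNeg replicate 3 and 0.80 without siNeg.PE replicate 1. At an unadjusted p under 0.05, 4 of the 9 were higher and 0 lower, and DESeq2 and limma-voom also called 0 lower. Kdr gave 0.11 (SE 0.147, edgeR adjusted p = 0.68).

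Ratios within a library do not depend on its depth. The ratio of Kdr to Tek counts was 0.948 to 1.05 in siNeg and 1.03 to 1.17 in siSlc25a26, and 0.352 to 0.383 in siNeg.PE and 0.294 to 0.376 in the libraries labelled siSlc25a26.PE. The PE and no-PE ranges were well apart. Tie1 to Tek averaged 0.110 in siNeg, 0.0537 in siNeg.PE, 0.0640 in siSlc25a26 and 0.0267 in siSlc25a26.PE. The ratio of Csf1r to Cd68 overlapped among all 4 groups, with means of 0.542, 0.518, 0.555 and 0.585 in siNeg, siNeg.PE, siSlc25a26 and siSlc25a26.PE. That of C1qa to Cd68 also overlapped, with means of 0.161, 0.187, 0.152 and 0.236 in that order. Csf1r to C1qa was 3.324 to 4.498 in siSlc25a26 and 2.059 to 2.888 in siSlc25a26.PE, without overlap. It was 2.875 to 3.821 in siNeg and 2.388 to 2.963 in siNeg.PE. C1qa had 29 to 69 counts per library.

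Other macrophage genes were mostly called lower where the macrophage members were. Of 22 listed, 21 were in the tables. With PE in siNeg, 13 of 19 tested were lower and 0 higher, against 8.24% and 12.4% of all genes. The median log2 fold change was -0.96 against 0.000158 over all genes. Lyz2 (lysozyme) fell by 0.95 (edgeR adjusted p = 0.000103), Fcer1g, an Fc receptor signalling chain, by 0.97 (0.00181), Cd74, the MHC class II invariant chain, by 0.67 (0.0112), and Aif1 (IBA1) by 1.66 (0.00196). Without PE, 11 of 19 were lower in siSlc25a26 and 0 higher (median -0.69), against 7.2% and 8.92% of all genes. Among those lower was the mannose receptor gene Mrc1, by 1.98 (edgeR adjusted p = 0.000388). With PE in siSlc25a26, 6 of 20 were lower and 0 higher (median -0.39), against 10.4% and 10.1% of all genes. Under PE, 3 of 19 were higher and 4 lower (median -0.31), against 7.71% and 8.1% of all genes. C1qc, the C chain of C1q, was at 1.60 (edgeR adjusted p = 0.021) and Cd74 at -2.08 (7.84e-05). The difference between PE effects was called higher for 2 of 20 and lower for 0, against 2.16% and 3.34% of all genes. Of the 2, Cybb, an NADPH oxidase subunit, had the larger value (1.11, edgeR adjusted p = 0.00847).

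Other endothelial genes were called in both directions. All 22 listed were in the tables and 12 or 13 were tested. With PE in siNeg, 2 were higher and 3 lower of 12 (median -0.066), against 12.4% and 8.24% of all genes. The higher genes were Ecscr (0.65, edgeR adjusted p = 0.00414) and Mmrn2 (1.17, 0.0329), and Flt1, which encodes VEGF receptor 1, fell by 0.92 (0.000805). Higher and lower calls were 1 and 0 of 12 with PE in siSlc25a26 (median 0.16), 0 and 2 of 13 with siSlc25a26 without PE (median -0.15), and 2 and 1 of 13 under PE (median 0.094). In that order the shares over all genes were 10.1% and 10.4%, 8.92% and 7.2%, and 7.71% and 8.1%. The difference between PE effects was called higher for 4 of 13 (Flt1, Icam2, Fabp4 and Cd34) and lower for 0 (median 0.31), against 2.16% and 3.34% of all genes, Icam2, an adhesion molecule, having the largest value (1.74, edgeR adjusted p = 0.0474). The fatty acid binding protein gene Fabp4 fell by 1.97 with PE in siNeg (edgeR adjusted p = 0.000647) and fell by 2.58 with siSlc25a26 without PE (0.000117). Eng, the TGFβ co-receptor endoglin, was the most abundant at a mean 70.4 FPKM, and was not called in any of the 5 comparisons. Detection varied within the list: Emcn, Cldn5, Robo4 and Sox17 had 0 to 8 counts in every library. Clec14a had 217 to 400 counts, Ecscr 146 to 258 and Flt1 170 to 439.

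Summed levels show both sets beside those of other cells. Relative to the siNeg mean, the macrophage genes stood at 0.513 in siNeg.PE, 0.574 in siSlc25a26 and 0.496 in siSlc25a26.PE, and the endothelial genes at 0.851, 0.977 and 1.01. Of the endothelial sum in siNeg, 27.16 CPM, Kdr and Tek made up 12.13 and 12.37 CPM, and they moved in opposite directions with PE. In the same order of groups Kdr was at 5.77, 12.82 and 6.57 CPM and Tek at 15.68, 11.9 and 19.49 CPM. Tie1, at 1.35 CPM in siNeg, was at 0.842, 0.758 and 0.520 CPM. In the same order the 10 fibroblast markers stood at 0.537, 0.594 and 0.407 and the 8 mural markers at 0.556, 0.589 and 0.567. These sums rest on a few abundant genes. Of the fibroblast sum in siNeg, 22350 CPM, the collagen genes Col1a1, Col3a1 and Col1a2 made up 13320, 5841 and 1851 CPM, and all 3 fell with PE in siNeg (log2 -0.94, -1.26 and -0.80). By gene, 5 of the 10 were lower and 0 higher with PE in siNeg, against 8.24% and 12.4% of all genes. Pdgfra (0.37), Dcn (0.27), Postn (0.14), Lum (0.041) and Ddr2 (-0.0027) were not called. Of the mural sum in siNeg, 3692 CPM, Acta2 and Tagln made up 1702 and 1092 CPM. With PE in siNeg 4 of the 8 mural genes were lower and 1, Rgs5, was higher (log2 0.75), and Cspg4 was at -0.0024. The 4 lymphatic endothelial markers stood at 1.13, 1.30 and 1.65. Among them Flt4, which encodes VEGF receptor 3, rose with PE in siNeg (log2 2.38, edgeR adjusted p = 2.22e-05) and from siSlc25a26 to siSlc25a26.PE (2.60, 8.65e-07), and Lyve1 had at most 5.76 counts. Prox1 and Pdpn, which made up 44.28 and 33.44 of the 80.65 CPM of these 4 markers in siNeg, were not called in either comparison. Their log2 values were -0.047 and -0.057 with PE in siNeg and -0.54 and 0.38 from siSlc25a26 to siSlc25a26.PE. From siNeg.PE to siSlc25a26.PE, Pdpn (log2 0.92, edgeR adjusted p = 9.27e-06) and Flt4 (1.26, 6.17e-05) were called higher and Prox1 (-0.31) was not called. The 6 epicardial and Schwann cell markers stood at 0.804, 0.617 and 0.492. The 14 cardiomyocyte markers stood at 1.52, 0.968 and 1.85. Of their sum in siNeg, 49420 CPM, Myh7 and Actc1 made up 9455 and 6469 CPM. These 2 genes stood at 17560 and 19860 CPM in siNeg.PE and at 23700 and 31660 CPM in siSlc25a26.PE. By gene, 6 of the 14 were higher and 0 lower with PE in siNeg. The 8 not called include Myh6 (log2 -0.48), Atp2a2 (-0.18) and Pln (-0.075). The part of these shifts in the results above was not tested. The T cell gene Cd3e had 1 count in 1 library.

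**Figure D4:**
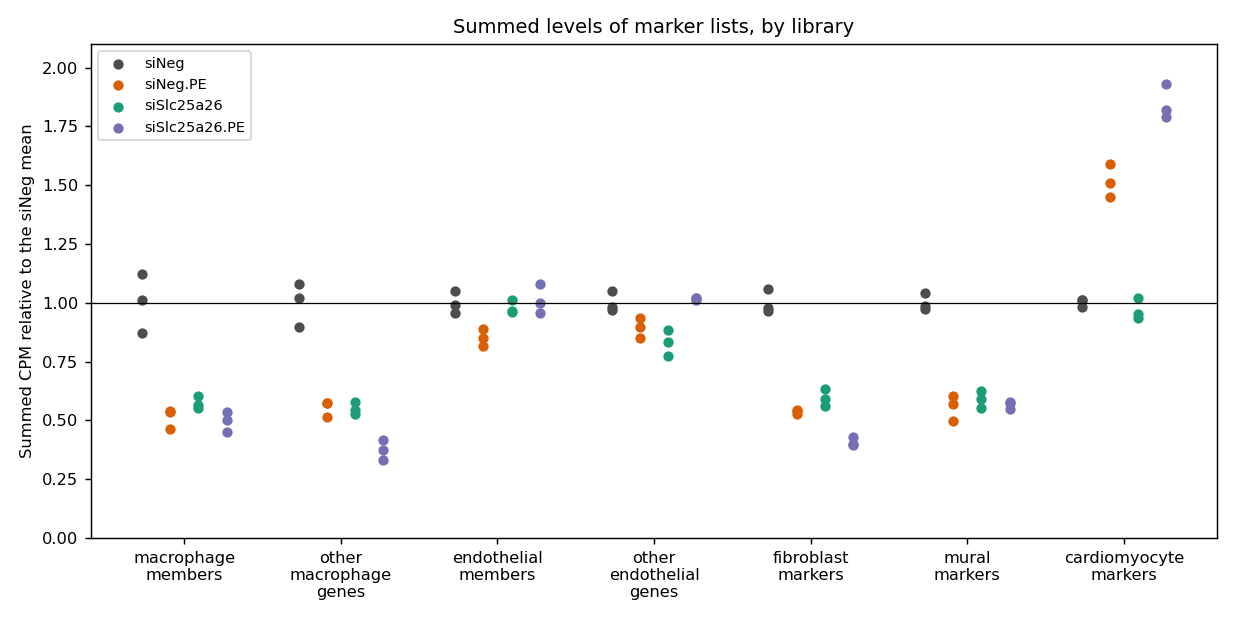
Summed CPM of 7 marker lists in each library relative to the siNeg mean (line at 1), coloured by group. Macrophage, fibroblast and mural sums lie at about 0.33 to 0.63 outside siNeg, endothelial sums stay between 0.774 and 1.08, and cardiomyocyte sums lie highest with PE. Of the sum of the other endothelial genes in siNeg, 319 CPM, Eng and Cd34 made up 206.7 and 62.21 CPM, so it says little about the rest of that list.

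Ligands and partners of these receptors were listed with the subunits that C1qa works with. Of 19 listed, 1 was higher and 8 lower of 15 with PE in siNeg, against 12.4% and 8.24% of all genes. Higher and lower calls were 0 and 8 of 16 with PE in siSlc25a26 (all genes 10.1% and 10.4%). They were 6 and 2 of 15 with siSlc25a26 without PE (8.92% and 7.2%) and 5 and 0 of 16 under PE (7.71% and 8.1%). In the difference between PE effects they were 3 and 2 of 16 (2.16% and 3.34%). Csf1, the ligand of the CSF1 receptor, had 271 ± 7.44 CPM in siNeg and 531 ± 21.4 CPM in siSlc25a26 (log2 fold change 0.94, SE 0.0511, edgeR adjusted p = 1.29e-06), the comparison in which Csf1r fell. With PE in siNeg Csf1 fell by 0.64 (SE 0.0484, edgeR adjusted p = 4.46e-05), as Csf1r did. The placental growth factor gene Pgf fell by 1.82 (edgeR adjusted p = 0.000101) with PE in siNeg. C1s and C1r, the proteases that join C1q in the C1 complex, rose by 2.66 and 1.32 with siSlc25a26 without PE (edgeR adjusted p = 6.78e-08 and 4.88e-07), while C1qa fell. The other C1q chain genes were too low to be tested there. C1qb (2 to 10 counts per library) had 0.225 ± 0.141 CPM in siNeg and 0.215 ± 0.0243 CPM in siSlc25a26. C1qc (4 to 23 counts) had 0.246 ± 0.0507 and 0.577 ± 0.204 CPM.

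Among the 3 genes most like Csf1r over the 12 libraries, by the root-mean-square difference of centred log2 CPM among 14096 genes, were Apc2 (0.138) and Fn1 (0.142). For Pecam1 the 3 were Fcgr1a (0.350), Kcnk1 (0.352) and Hcls1 (0.356). Pecam1 had 3 to 23 counts per library.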

How the data were processed

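The authors deposited estimated counts for each gene and, separately, FPKM values, which the authors scaled by gene length and library total, for 18469 genes in 12 libraries. Their processing notes name HISAT, Bowtie2 and Rnor_6.0, with no roles; the counting program, annotation and strandedness are not given in the sources used here. Between 20.8% and 21.9% of count values per library are not whole; the planned design assumed counts, so expected counts were rounded. Groups came from the labels. The labels name siSlc25a26, whereas the study's text describes siNap1l5 and other treatment times; the labels were followed.

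Tests used edgeR 4.0.16 under R 4.3.3 (quasi-likelihood F-test after TMM scaling and filterByExpr) over all genes, with the groups compared in each fit and all 12 libraries for the difference between PE effects. Standard errors came from the F statistic. Alternatives were DESeq2 1.42.0, limma 3.58.1 (voom, and log2(FPKM + 1) and log2(FPKM + 0.1)), DESeq2 size factors, no filter, 10 counts in every library, a replicate block, all 12 libraries, the same fits with 1 library removed at a time, and calls made on the adjusted p alone. On simulated counts for PE in siNeg, 186 of 200 genes changed 2-fold were recovered among 13696 tested and 2 unchanged genes were called. For the difference between PE effects, 170 of 200 were recovered among 13903 tested and 14 unchanged genes were called. No pair of libraries in a group agreed within sampling noise (chi-square per gene 5.34 to 20.7).

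The members and gene lists were chosen with earlier results of these data known. All members are named; of each other macrophage, endothelial and ligand list, named genes came from the 3 highest by mean FPKM and the largest call per direction. Other genes named were chosen after their values were seen. Identifiers matched RefSeq GRCr8 for 16962 genes (91.8%), used for names and promoters only. For the nearest genes, log2 CPM had a prior count of 2 added, and 1 of these genes is not reported here.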

Additional observations from a re-analysis of the deposited data

Results flagged for a closer look

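Csf1r and C1qa responded differently to PE in the 2 siRNA backgrounds by edgeR's interaction test over 12 libraries. For Csf1r the difference was 0.8153 on the log2 scale (adjusted p = 0.0123): its change with PE was -1.06 in siNeg and -0.22 in siSlc25a26, where the treated libraries are those labelled siSlc25a26.PE. For C1qa it was 1.053 (adjusted p = 0.0464), from -0.73 in siNeg to 0.34 in siSlc25a26, and this call was lost under 13 of 21 alternatives. The untreated siSlc25a26 libraries were already lower than siNeg for both genes, at 4.38 ± 0.400 CPM for Csf1r and 1.20 ± 0.219 CPM for C1qa, beside 3.62 ± 0.402 CPM and 1.32 ± 0.0691 CPM in siNeg.PE (SD, n = 3).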

How the results depend on the processing

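Of the single-gene values under other settings, 623 kept their direction and side of the thresholds, 45 turned sign (all of genes not called), 39 lost a call and 12 gained one. The causes were not tested. Calls of Kdr with PE in both siRNAs and of Cd68 in both comparisons where it was called held under every alternative run. With no fold change threshold the genes called higher and lower were 3456 and 3329 with PE in siNeg, 3634 and 3585 with PE in siSlc25a26, 3223 and 2998 with siSlc25a26 without PE, 2744 and 2744 under PE, and 773 and 808 for the difference; of the members, 1 was then higher with PE in siNeg (Tek), 2 lower with PE in siSlc25a26 (Kdr, Cd68) and 1 higher under PE (Tek). On log2(FPKM + 1), where low genes move less, the counts were 857 higher and 733 lower with PE in siNeg (3 members lower), 564 higher with PE in siSlc25a26 (0 members higher), 452 lower with siSlc25a26 without PE (1 member lower), 623 higher under PE and 164 higher for the difference (1 member). On log2(FPKM + 0.1) they were 824 higher and 2214 lower with PE in siSlc25a26 (0 members higher) and 768 lower for the difference. limma-voom and no filter each left 1 member in the difference.

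The 2 FPKM scales moved the median of all genes to -0.125 and -0.172 with PE in siSlc25a26 and -0.109 and -0.143 for the difference, from -0.00357 and -0.0452. The share of calls that were higher went from 49.2% to 27.4% and 27.1%, and from 39.3% to 23.4% and 22.1%; changes there are relative to that shift. Signs turned on log2(FPKM + 1) and log2(FPKM + 0.1) for Cdh5 with PE in siSlc25a26 (-0.054, -0.24), without PE (0.0090, 0.053), under PE (-0.024, -0.068) and in the difference (-0.033, -0.12), for Csf1r under PE (-0.020, -0.039), and in the difference for Kdr (-0.019, -0.0085) and Ptprc (-0.0083, -0.038). They turned with limma-voom for Ptprc without PE (-0.050) and Tie1 in the difference (-0.016).

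Without 1 library in turn, Cdh5 ran from -0.47 to 0.52 with PE in siNeg, -0.16 to 0.42 with PE in siSlc25a26, -0.56 to 0.48 without PE, -0.43 to 0.30 under PE and -0.48 to 0.57 in the difference. Ptprc ran from -0.88 to 0.19 with PE in siSlc25a26, -0.21 to 0.30 without PE and -0.61 to 0.71 in the difference, Csf1r from -0.047 to 0.12 under PE and Tie1 from -0.35 to 0.52 in the difference. Members called in the difference ran from 1 to 2, and genes called lower in it from 301 to 646, with 301 without siNeg.PE replicate 3.

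Same-numbered libraries did not deviate together in every pair (correlations -0.104 to 0.282), and libraries correlated best with their own number in 5, 0, 3 and 4 of 6, so the numbers were not taken as pairs. With the replicate block, genes called lower in the difference were 619 against 471, Pecam1 with PE in siNeg (-1.28, edgeR adjusted p = 0.0393) and Cd68 in the difference (0.68, edgeR adjusted p = 0.0434) were called, and Ptprc without PE was -0.015. Depth limits Pecam1, Cdh5, Tie1 and Ptprc, at 3 to 40 counts per library.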
